A study of Mus musculus with 4 samples.

Results

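The glycolytic enzymes of the mouse testis described here are 10 genes, measured by 13 probe sets. They were taken as each probe set whose platform annotation names exactly 1 gene and whose gene is among 4 germ-cell isozymes (Gapdhs, Pgk2, Aldoart2 and Ldhc) or 6 further enzymes (Pgam2, Pkm, Aldoa, Ldha, Tpi1 and Hk1). The whole array holds 12422 probe sets that are not controls, and those annotated to 1 gene stand for 8251 genes. Each of the 13 probe sets passed the filter on low signal described below. The genes were chosen by enzyme class and by their signals and changes on these same arrays, where Gapdhs, Pgk2, Pkm and Aldoa had been seen to be lower in Tslc1-/- and Ldhc had not. Their values are therefore a description. The p-values printed for them are those of the fit of all probe sets and carry no independent weight.

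RNA of whole testis was hybridised to 4 Affymetrix mouse expression arrays, 2 for Tslc1-/- and 2 for Tslc1+/+, from C57BL/6J males aged 16 weeks. Tslc1, now named Cadm1, encodes an immunoglobulin superfamily adhesion molecule by which germ cells adhere to Sertoli cells. Which exons were deleted is not given in the labels, and the labels do not tell whether replicates are different animals, so p-values reflect the spread of 4 arrays that may be technical. Signals are Microarray Suite 5.0 (MAS5) values on a linear scale, and changes are log2(signal + 50) of Tslc1-/- minus Tslc1+/+.

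Glycolysis splits glucose into pyruvate in a fixed chain of steps, and lactate dehydrogenase interconverts pyruvate and lactate. Male germ cells carry their own forms of several of these enzymes, made in meiotic and haploid cells, beside the forms of other tissues. Pgk2 is an intronless copy of the X-linked Pgk1 and is used when the X chromosome is silent in meiosis, and the Aldoart2 gene is likewise a retrotransposed copy of Aldoa. GAPDHS is bound to the fibrous sheath of the sperm tail, and mouse sperm that lack GAPDHS, PGK2 or LDHC move poorly.

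The stretch upstream of the start is shown for Gapdhs and Pgk2, which were lower in Tslc1-/- testis, and for Ldhc and its somatic counterpart Ldha, which were not called. The sequences are the 250 bases before the first start that the RefSeq table (GRCm38.p6) lists for each gene, where all 10 genes matched. Capitals mark the core of the cAMP response element (TGACG, or TGACGTCA where complete), the CCAAT box (CCAAT) and the GC box (GGGCGG), each searched on both strands. The Gapdhs stretch lies at chr7:30743682-30743931 on the minus strand, that of Pgk2 at chr17:40208610-40208859 on the minus strand, that of Ldhc at chr7:46861013-46861262 on the plus strand and that of Ldha at chr7:46845554-46845803 on the plus strand.
Gapdhs: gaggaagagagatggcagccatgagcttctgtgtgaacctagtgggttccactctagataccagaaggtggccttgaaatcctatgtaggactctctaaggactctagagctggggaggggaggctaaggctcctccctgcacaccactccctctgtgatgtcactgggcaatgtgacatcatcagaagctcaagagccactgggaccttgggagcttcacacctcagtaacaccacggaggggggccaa
Pgk2: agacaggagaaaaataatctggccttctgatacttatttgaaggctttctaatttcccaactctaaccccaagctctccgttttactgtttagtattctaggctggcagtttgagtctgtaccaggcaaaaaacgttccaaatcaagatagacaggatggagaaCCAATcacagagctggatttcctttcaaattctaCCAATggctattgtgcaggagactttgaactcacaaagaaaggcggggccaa
Ldhc: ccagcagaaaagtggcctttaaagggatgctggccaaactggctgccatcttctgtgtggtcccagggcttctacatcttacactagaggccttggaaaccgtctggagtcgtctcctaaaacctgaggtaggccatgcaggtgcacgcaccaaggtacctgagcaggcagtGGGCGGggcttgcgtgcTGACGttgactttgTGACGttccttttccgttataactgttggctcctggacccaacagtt
Ldha: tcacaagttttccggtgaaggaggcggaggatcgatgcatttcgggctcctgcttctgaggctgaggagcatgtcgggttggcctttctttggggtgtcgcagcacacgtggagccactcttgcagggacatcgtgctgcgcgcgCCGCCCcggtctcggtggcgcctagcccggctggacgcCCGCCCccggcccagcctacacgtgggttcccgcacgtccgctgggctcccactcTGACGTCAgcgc

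The Gapdhs stretch held none of these letters. The Pgk2 stretch held 2 CCAAT boxes, whose first bases lie 86 and 52 bases before the start. The Ldhc stretch held 2 copies of TGACG, at 61 and 47 bases before the start, and 1 GC box at 78. Ldha held the complete TGACGTCA 12 bases before its start, in which both strands read TGACG, and 2 GC boxes. The table holds 32851 stretches of 250 bases, with each listed start of a gene counted and not the first alone. Of these, 17.8% held TGACG, 1.55% the complete element, 33.9% a CCAAT box and 32.7% a GC box. Of the 10 members' stretches before the first listed start, 2 held TGACG, 1 the complete element, 3 a CCAAT box and 4 a GC box. The 2 with TGACG were those of Ldhc and Ldha. The uncalled Hk1, Tpi1 and Pgam2 held no TGACG, like the genes with a called probe set. Stretches before later listed starts differed from the first ones for some members. Those of Aldoa held CCAAT and GC boxes, and that of Ldha held TGACG but not the complete element. Those of Ldhc, Gapdhs, Hk1 and Pkm held none of these letters. A link between these letters and the changes was not tested. A match of letters describes the sequence and is not a bound site.

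For the aldolase pair, the 30 bases most alike between the germ-cell copy and its parent were sought, over all 3 starts listed for Aldoa. This stretch is the best of many compared. How near a match unrelated genes would give was not tested. The closest 30 bases between the starts of both genes, without gaps, had 26 identical bases, and capitals mark the 4 that differ. The Aldoa stretch, on the minus strand, begins at base 8 from the third of 3 starts listed for Aldoa, at chr7:126799142-126799171, and the Aldoart2 stretch lies on the plus strand at chr12:55565135-55565164, upstream of the listed start.
Aldoa: ctgaAtaggCtgcgttctctTggaacGcgc
Aldoart2: ctgaGtaggTtgcgttctctCggaacAcgc

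Median signals per array were 378 and 365 in Tslc1-/-, against 362 and 378 in Tslc1+/+. The targeted transcript fell on both Cadm1 probe sets that passed the filter, to 444 and 445 in Tslc1-/- against 3960.0 and 3925 in Tslc1+/+ on the first, and to 776 and 605 against 3450 and 4028 on the second (limma, adjusted p = 2.31e-05 and 1.83e-04). Of 7975 tested probe sets, 86 passed an adjusted p of 0.05 (limma, Benjamini-Hochberg), or 1.08%, and 0.84% passed as lower and 0.238% as higher. Such probe sets are called below. Markers of germ cells read at high signals, with the protamine gene Prm1 at 73083 and 76357 in Tslc1-/- against 79771 and 83668 in Tslc1+/+, while the probe sets of Prm2 (4.6 to 396.3) and Sycp3 (6.8 to 20.9) were dim on all arrays.

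Probe sets for 4 steps of the chain were called lower in Tslc1-/- testis: aldolase, glyceraldehyde-3-phosphate dehydrogenase, phosphoglycerate kinase and pyruvate kinase. Of the 13 member probe sets, 6 were called, all lower, and 7 were not called, against 1.08% called among all tested probe sets. The called ones belong to Gapdhs, Pgk2 and Aldoart2 among the germ-cell isozymes and to Pkm and Aldoa among the others. Signals of both Tslc1-/- arrays lay below both Tslc1+/+ arrays on 9 of the 13, a pattern seen in 18.5% of all tested probe sets. They lay above on 2, Hk1 and Ldha, as in 21.5% of all tested, and overlapped on Ldhc and 1 Pkm probe set. The median change was -0.50 over the 13 member probe sets and 0.02 over all tested. Bright probe sets are called more often: with a mean signal of at least 5000, 6.58% of 714 probe sets were called lower, 34.2% had both Tslc1-/- arrays below both Tslc1+/+ arrays, and the median change was -0.03, while 10 members reach that signal and 6 of them were called lower.

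**Figure D1:**
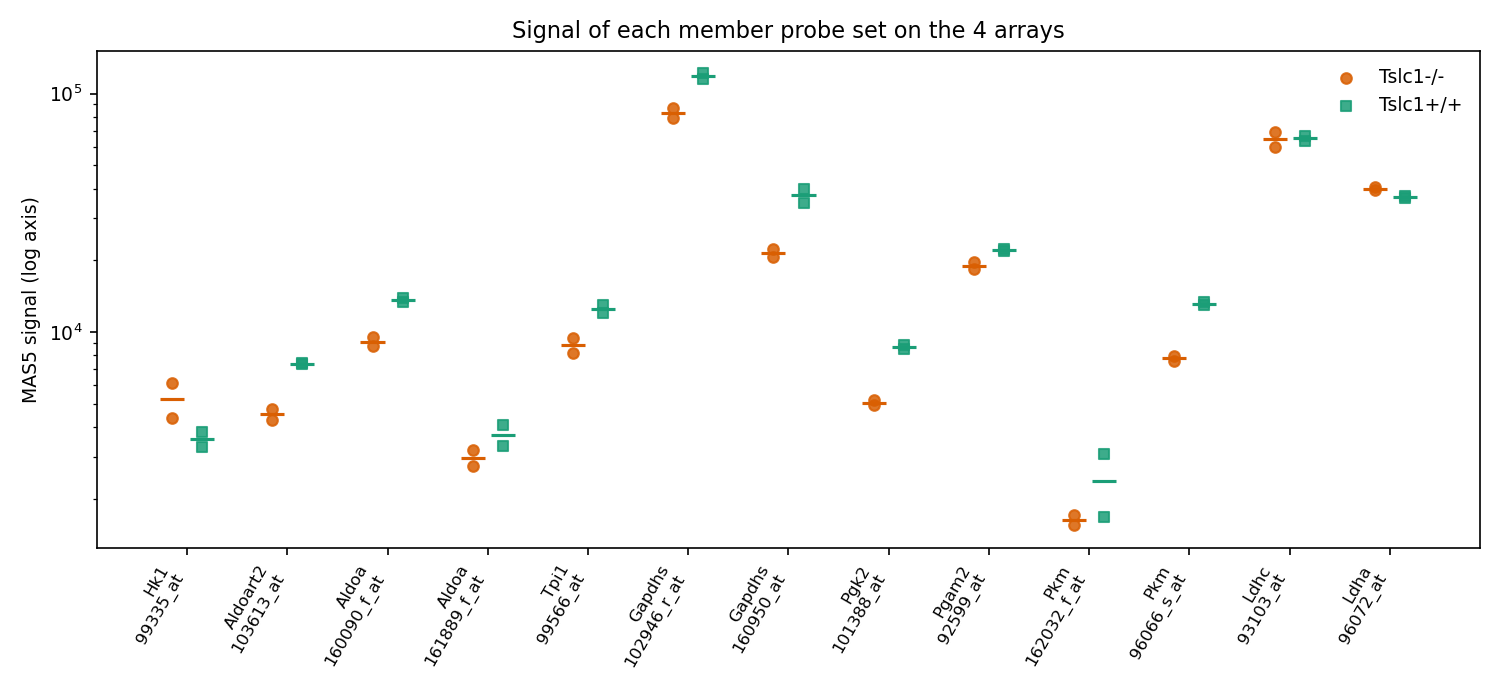
MAS5 signal (log axis) of the 13 member probe sets, in the order of glycolysis, on each of the 2 Tslc1-/- arrays (circles) and 2 Tslc1+/+ arrays (squares), with short lines at the genotype means. The genotypes stand clearly apart for Aldoart2, the first Aldoa probe set, both Gapdhs probe sets, Pgk2 and the brighter Pkm probe set, and they overlap for Ldhc.

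Sperm-specific glyceraldehyde-3-phosphate dehydrogenase, Gapdhs, catalyses the step that makes the first NADH of the chain, and it fell on both of its probe sets. The dimmer probe set read 22243 and 20759 in Tslc1-/- testis, against 40012 and 34913 in Tslc1+/+ testis. Its means were 21501 ± 1050 in Tslc1-/- and 37463 ± 3605 in Tslc1+/+ (SD, n = 2). The difference was 1.74-fold, or -0.80 on the log2 scale (SE 0.09, limma, adjusted p = 0.00143). The brighter probe set read 86855.5 and 79225 in Tslc1-/-, against 121506 and 115498 in Tslc1+/+. Its change was -0.51 (SE 0.07, limma, adjusted p = 0.00495). With quantile normalization the brighter probe set had a change of -0.19 and was not called (limma, adjusted p = 0.114), while the dimmer one was still called, at -0.59. The ID of the brighter probe set has a suffix for possible cross-hybridisation, and that of the dimmer one has none.

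Pgk2, the germ-cell phosphoglycerate kinase that makes the first ATP of the chain, fell to 4941 and 5198 in Tslc1-/- testis, against 8538 and 8883 in Tslc1+/+ testis. The genotypes were far apart relative to their spread, at 5069 ± 182 in Tslc1-/- and 8711 ± 244 in Tslc1+/+ (SD, n = 2). This 1.72-fold difference is a change of -0.78 (SE 0.10, limma, adjusted p = 0.00495). Pgk1, the X-linked parent gene, read 848 and 622 in Tslc1-/-, against 883 and 515 in Tslc1+/+, with overlapping genotypes and a change of 0.10 (limma, adjusted p = 0.955).

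The retrotransposed aldolase Aldoart2, a form found in sperm, read 4795 and 4310.1 in Tslc1-/-, against 7357 and 7413 in Tslc1+/+. It fell by 0.69 on the log2 scale (SE 0.11, limma, adjusted p = 0.0147). Aldoa, the parent gene and the aldolase of muscle and many other tissues, was also lower on its brighter probe set, with 8743 and 9518 in Tslc1-/- against 13889.6 and 13349.8 in Tslc1+/+. That probe set fell by 0.58 (SE 0.09, limma, adjusted p = 0.0168). The dimmer Aldoa probe set read 2762 and 3210.0 in Tslc1-/-, against 3357 and 4106 in Tslc1+/+, a change of -0.31 that was not called (SE 0.15, limma, adjusted p = 0.533). Both Aldoa probe sets carry the suffix for probes shared within a gene family, so Aldoa and its copies cannot be told apart on them.

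Ldhc, the germ-cell lactate dehydrogenase, was the exception among the germ-cell isozymes. It read 69299 and 59746 in Tslc1-/- testis, against 63516 and 66567 in Tslc1+/+ testis, so the Tslc1+/+ arrays lay between the Tslc1-/- arrays. The log2 change was -0.02, with a 95% interval from -0.20 to 0.17 (limma, adjusted p = 0.97). Its sign was not stable: the change was 0.14 with quantile normalization, 0.02 without Tslc1+/+ replicate 2 and 0.092 without Tslc1-/- replicate 2, and never called. Ldha, the somatic form of the same enzyme, read 39426 and 40441 in Tslc1-/-, against 37346 and 36586.5 in Tslc1+/+. The Ldha arrays did not overlap, but its change of 0.11 was not called (95% interval -0.05 to 0.27, limma, adjusted p = 0.673).

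**Figure D2:**
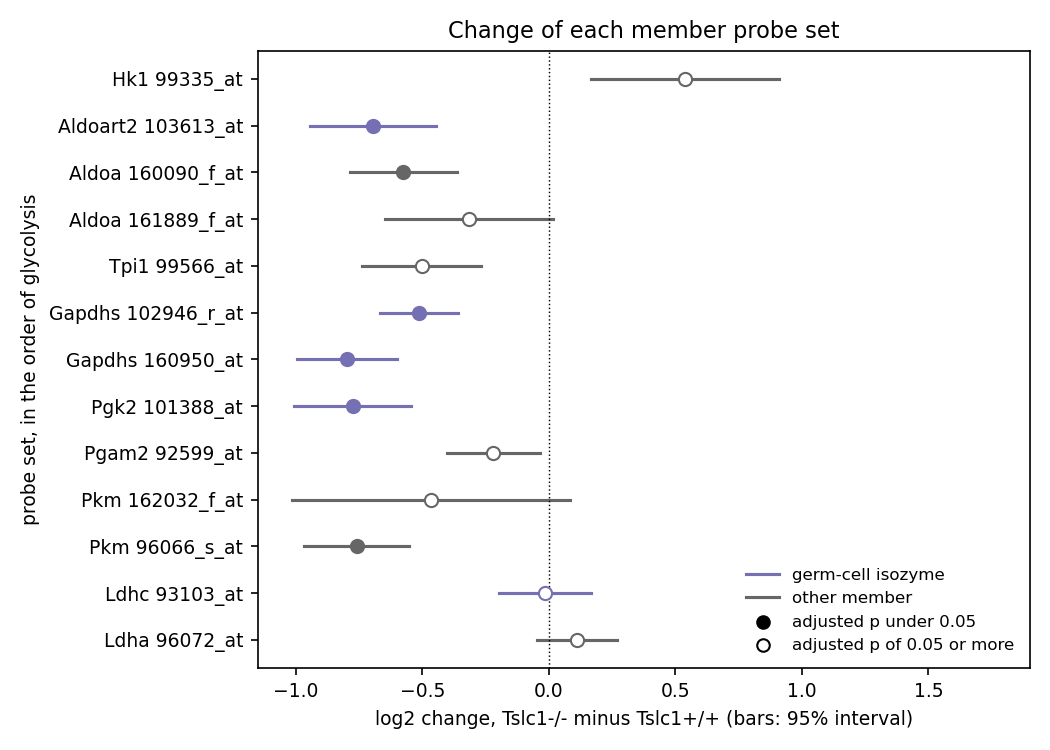
Log2 change of each member probe set with its 95% interval, from the fit of all tested probe sets and not adjusted for their number, in the order of glycolysis. Filled points had an adjusted p under 0.05. Changes from Aldoart2 to Pkm are negative, with the lowest at -0.80 (Gapdhs), while Hk1 is at 0.54 and both lactate dehydrogenases lie near 0.

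Pkm, which encodes the pyruvate kinase of muscle and of most other tissues and makes the last ATP of the chain, had the largest fall among the 6 members that are not germ-cell isozymes, on its brighter probe set. That probe set read 7962 and 7608 in Tslc1-/-, against 13041 and 13366 in Tslc1+/+. It averaged 7785 ± 250 in Tslc1-/- and 13204 ± 230 in Tslc1+/+ (SD, n = 2), with a change of -0.76 (SE 0.09, limma, adjusted p = 0.00258). The dimmer Pkm probe set read 1717 and 1554 in Tslc1-/-, against 3079.7 and 1677.5 in Tslc1+/+. There the Tslc1+/+ replicates differed widely and the lower one lay within the Tslc1-/- range, so the change of -0.47 was not called (SE 0.25, limma, adjusted p = 0.59). Without Tslc1+/+ replicate 1 that change was -0.04. Both Pkm probe sets carry a cross-hybridisation suffix.

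Tpi1, triose phosphate isomerase, which has a single gene for all tissues, read 8172 and 9495 in Tslc1-/-, against 12976 and 12045 in Tslc1+/+. Its arrays were separated, but the change of -0.50 was not called (SE 0.11, limma, adjusted p = 0.0614). It was called over probe sets without a cross-hybridisation suffix (limma, adjusted p = 0.0342). Pgam2, the muscle form of phosphoglycerate mutase, which is also made in testis, read 18369 and 19713 in Tslc1-/-, against 21951 and 22386.5 in Tslc1+/+. The change of -0.22 was not called (95% interval -0.40 to -0.04, limma, adjusted p = 0.375).

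Muscle markers were looked at beside Pgam2. The 14 probe sets of 9 skeletal muscle genes summed to 6029 and 5863 in Tslc1-/-, against 5374 and 4858 in Tslc1+/+, of which the beta enolase gene Eno3 gave 3328 and 3224 in Tslc1-/-, against 3256 and 2901 in Tslc1+/+. Without Eno3 the other 13 probe sets summed to 2701 and 2639 in Tslc1-/-, against 2118 and 1957 in Tslc1+/+. Of the list, 5 probe sets passed the filter and 0 were called (limma), with an unadjusted p under 0.05 for Myh4 alone. The myosin gene Myh4 read 554.5 and 399.1 in Tslc1-/-, against 71.6 and 152.5 in Tslc1+/+ (change 1.73, limma, adjusted p = 0.294), on a probe set with a cross-hybridisation suffix. Its other probe set overlapped between genotypes, below the filter. The creatine kinase gene Ckm read 421.8 and 525.4 in Tslc1-/-, against 777.9 and 659.0 in Tslc1+/+ (change -0.56, limma, adjusted p = 0.564). Probe sets of Acta1 and Mb were below the filter. The part of muscle RNA in Pgam2 was not tested.

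Hk1, the hexokinase that phosphorylates glucose at the entry of the chain and that has germ-cell transcripts, had a change of the opposite sign. It read 6161 and 4365 in Tslc1-/- testis, against 3833 and 3298 in Tslc1+/+ testis. Both Tslc1-/- arrays were higher, but they also differed from each other, and the change of 0.54 was not called (SE 0.17, limma, adjusted p = 0.239). With either Tslc1-/- array left out the change was 0.29 (without replicate 1) or 0.78 (without replicate 2). Hk1 was called higher when replicate number was added to the fit as a block (limma, adjusted p = 0.0149). That fit called 239 of all tested probe sets.

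The levels of the enzymes cannot be ranked from these arrays, because signals of different probe sets depend on their probes. Probe sets of the same gene differed by 3.42 times in mean signal for Gapdhs, 5.23 times for Pkm and 3.39 times for Aldoa. With that limit, mean signals of the germ-cell isozyme probe sets ran from 5969 (Aldoart2) to 100771 (the brighter Gapdhs probe set). Those of the other members ran from 2007 (the dimmer Pkm probe set) to 38450 (Ldha). For each of these 3 genes both probe sets had changes of the same sign.

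**Figure D3:**
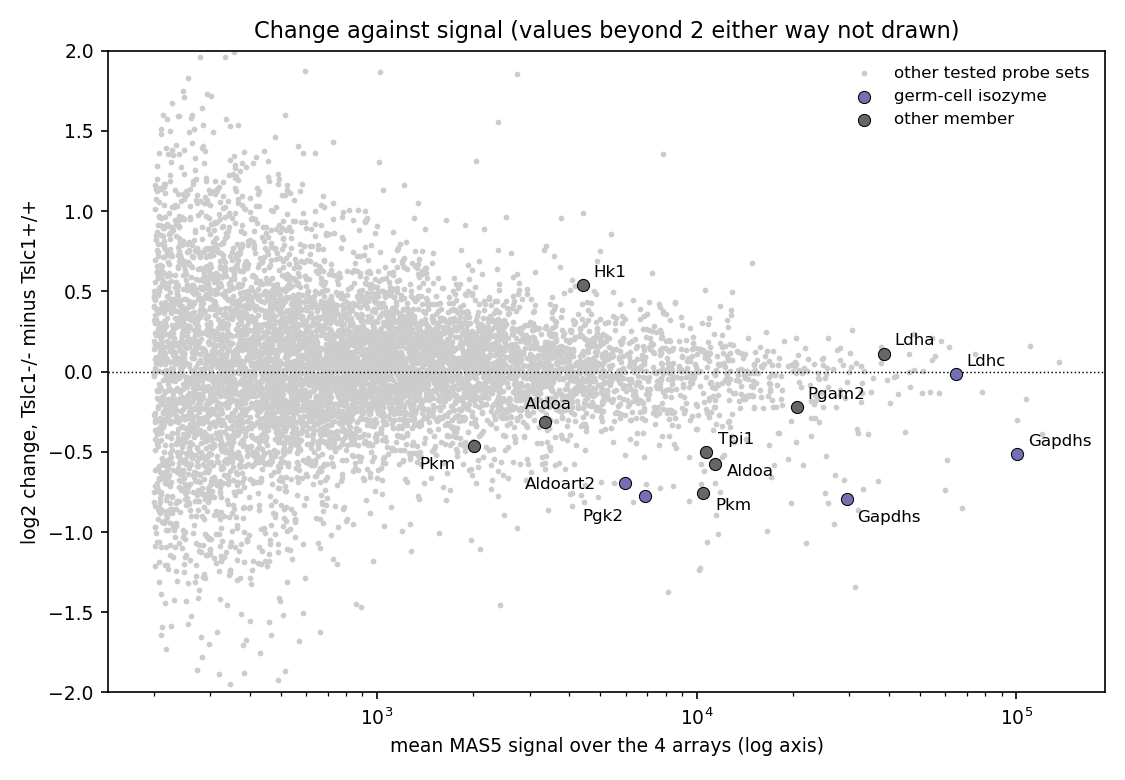
Log2 change against mean MAS5 signal (log axis) for the 7975 tested probe sets (grey), with the members on top. Values beyond 2 in either direction are not drawn. The called members stand in the lower part of the cloud at signals above 5000, where other probe sets reach -1.37. Ldhc and Ldha lie near 0 and Hk1 lies above.

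The members of both classes were chosen by their changes, so the classes are described with no test. Of the germ-cell isozymes' 5 probe sets 4 were called lower, with a median change of -0.69, and of the 8 probe sets of the other 6 genes 2 were called lower, with a median of -0.39. The background is 0.84% of all tested probe sets called lower and a median of 0.02. Among tested probe sets with a mean signal of at least 5000, which all 5 germ-cell probe sets reach, it is 6.58% and a median of -0.03. The mean log2 signal of the germ-cell probe sets exceeded that of the others by 1.37 and 1.27 on the Tslc1-/- arrays and by 1.56 and 1.65 on the Tslc1+/+ arrays. The difference between genotypes was -0.29, and it moved with the processing. It was -0.55 over the 8 probe sets without a cross-hybridisation suffix and -0.19 with quantile normalization. The 2 classes overlapped: Pkm, at -0.76, stood beside Pgk2, at -0.78, and Ldhc, a germ-cell isozyme, was at -0.02.

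Ratios of signals within an array do not depend on how arrays were scaled, and they separated the genotypes for some isozyme pairs and overlapped for others. They use the same signals by which members were chosen and are given with no test. The log2 ratio of Pgk2 to Pgk1 was 2.54 and 3.06 in Tslc1-/-, against 3.27 and 4.11 in Tslc1+/+, a difference of -0.89 between genotype means, without overlap. The ratio of the dimmer Gapdhs probe set to the 3' control probe set of somatic Gapdh was 1.41 and 1.40 in Tslc1-/-, against 2.00 and 1.75 in Tslc1+/+, a difference of -0.47. Against the middle and 5' control probe sets of Gapdh it was -0.61 and -0.68. For the brighter Gapdhs probe set the differences were -0.19, -0.33 and -0.40 against the 3', middle and 5' control probe sets, all without overlap. The aldolase ratio, Aldoart2 to Aldoa, overlapped between genotypes, with -0.87 and -1.14 in Tslc1-/-, against -0.92 and -0.85 in Tslc1+/+. Since the Aldoa probe set has probes shared within the family, that ratio cannot show whether the forms changed unequally.

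The other pairs were less clear. Ldhc to Ldha gave 0.81 and 0.56 in Tslc1-/-, against 0.77 and 0.86 in Tslc1+/+, with overlap. Pgam2 to its somatic form Pgam1 gave 3.51 and 3.37 in Tslc1-/-, against 3.34 and 4.35 in Tslc1+/+, with overlap, since Pgam1 itself read 2164 and 1098 on the Tslc1+/+ arrays. Ldhc to Ldhb, the heart form, was lower in Tslc1-/- by 0.23. With 2 arrays against 2, an exact permutation test cannot give a two-sided p below 0.333, and none is given. The 3', middle and 5' control probe sets of somatic Gapdh with IDs ending in at, which were not part of the fit, were themselves lower in Tslc1-/-. The 3' one read 8390 and 7880 in Tslc1-/-, against 10002 and 10360 in Tslc1+/+, and was 1.25-fold lower. The middle and 5' ones were 1.14-fold and 1.08-fold lower. Of the 3 dim Gapdh controls with IDs ending in st (572.5 to 966.5), 1 was higher in Tslc1-/- and the others overlapped.

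**Figure D4:**
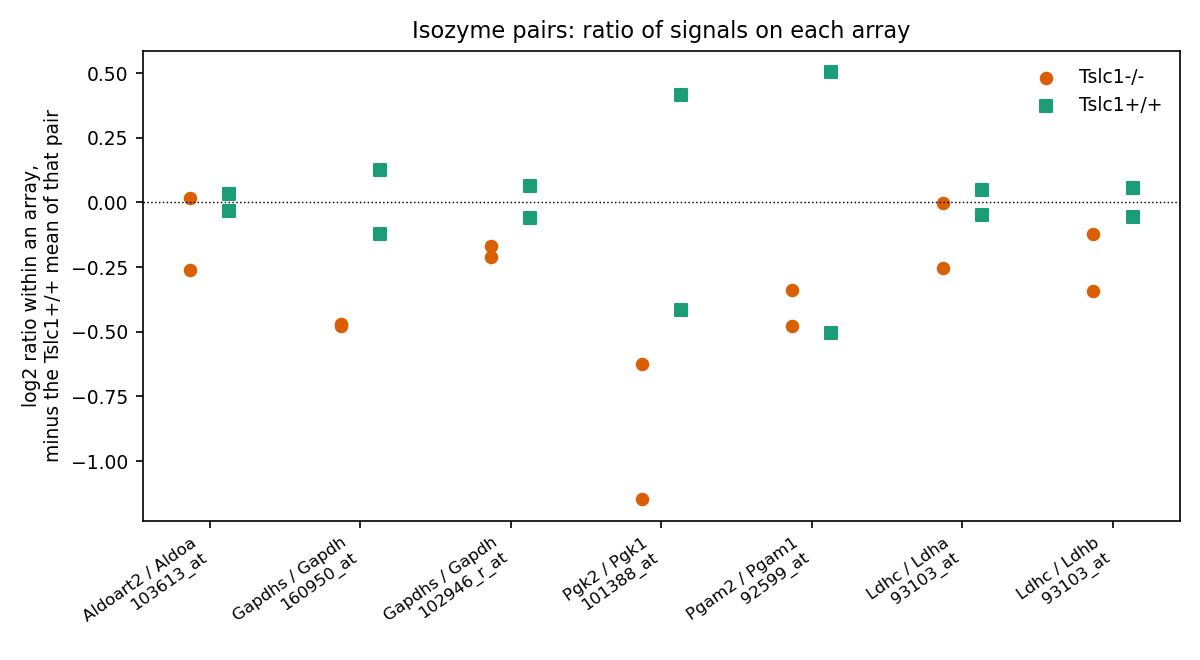
Log2 ratio of signals for 7 isozyme pairs on each Tslc1-/- array (circles) and each Tslc1+/+ array (squares), each pair shifted so that its Tslc1+/+ mean is 0. The Tslc1-/- arrays lie below both Tslc1+/+ arrays for Pgk2 to Pgk1, both Gapdhs probe sets to Gapdh and Ldhc to Ldhb, and overlap for the other pairs.

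Of 48 tested probe sets of 44 further genes of glucose metabolism in 5 lists, 0 were called (limma), which is near the 1.08% of all tested probe sets. An unadjusted p under 0.05 was found for 6 of the 48, against 799 of all 7975, and the median change was -0.01. Among 23 other glycolytic enzymes listed, 13 were tested on 14 probe sets, with a median of 0.09. The brightest, the muscle phosphofructokinase Pfkm, read 4894 and 5779 in Tslc1-/-, against 4451 and 4391 in Tslc1+/+ (change 0.26, limma, adjusted p = 0.525). Hexokinase 2, Hk2, had the smallest p of that list, with 806 and 761 in Tslc1-/-, against 1015 and 1318 in Tslc1+/+ (change -0.53, limma, adjusted p = 0.446).

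Glucose and monocarboxylate transport had a median of 0.07 over 8 probe sets of 7 genes. Slc2a3, which encodes the glucose transporter GLUT3 of germ cells, read 7490 and 7104 in Tslc1-/-, against 5079 and 5608 in Tslc1+/+, and 13507 and 10992 against 10176 and 9166 on its second probe set. Both were higher without overlap, with log2 changes of 0.45 and 0.33, and neither was called (limma, adjusted p = 0.113 and 0.325). Bsg, the chaperone of monocarboxylate transporters and the brightest of the list, read 19148 and 19995 in Tslc1-/-, against 18872 and 19279 in Tslc1+/+.

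Pyruvate dehydrogenase genes had a median of -0.11 over 9 probe sets of 8 genes. The germ-cell E1 alpha subunit Pdha2, itself an intronless copy of the X-linked Pdha1, read 7365 and 7928 in Tslc1-/-, against 7162 and 6907 in Tslc1+/+ (change 0.12, limma, adjusted p = 0.768). Dlat, the E2 subunit, had the smallest p of the list, with 689 and 694 in Tslc1-/- against 1147 and 1098 in Tslc1+/+ (change -0.66, limma, adjusted p = 0.266). Its other probe set overlapped between genotypes.

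In the list of fructose, sorbitol and glycerol metabolism and glycolytic regulators, with a median of -0.05 over 8 probe sets of 7 genes, Gpd2 was nearest to a call. This mitochondrial glycerol-3-phosphate dehydrogenase read 18949 and 15793 in Tslc1-/-, against 23363 and 23486 in Tslc1+/+ (change -0.44, limma, adjusted p = 0.0816), on a probe set with a cross-hybridisation suffix. Fbp1, the fructose bisphosphatase that opposes phosphofructokinase, was the brightest, with 21105 and 21898 in Tslc1-/-, against 20089.6 and 20004.5 in Tslc1+/+. Its change of 0.10 was not called (limma, adjusted p = 0.744).

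The pentose phosphate pathway had a median of -0.16 over 9 probe sets of 9 genes. Pgls, 6-phosphogluconolactonase, read 2675 and 2655 in Tslc1-/- against 3682 and 4086 in Tslc1+/+ (change -0.53, limma, adjusted p = 0.114). H6pd, hexose-6-phosphate dehydrogenase and the brightest of this list, had a change of -0.02.

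**Figure D5:**
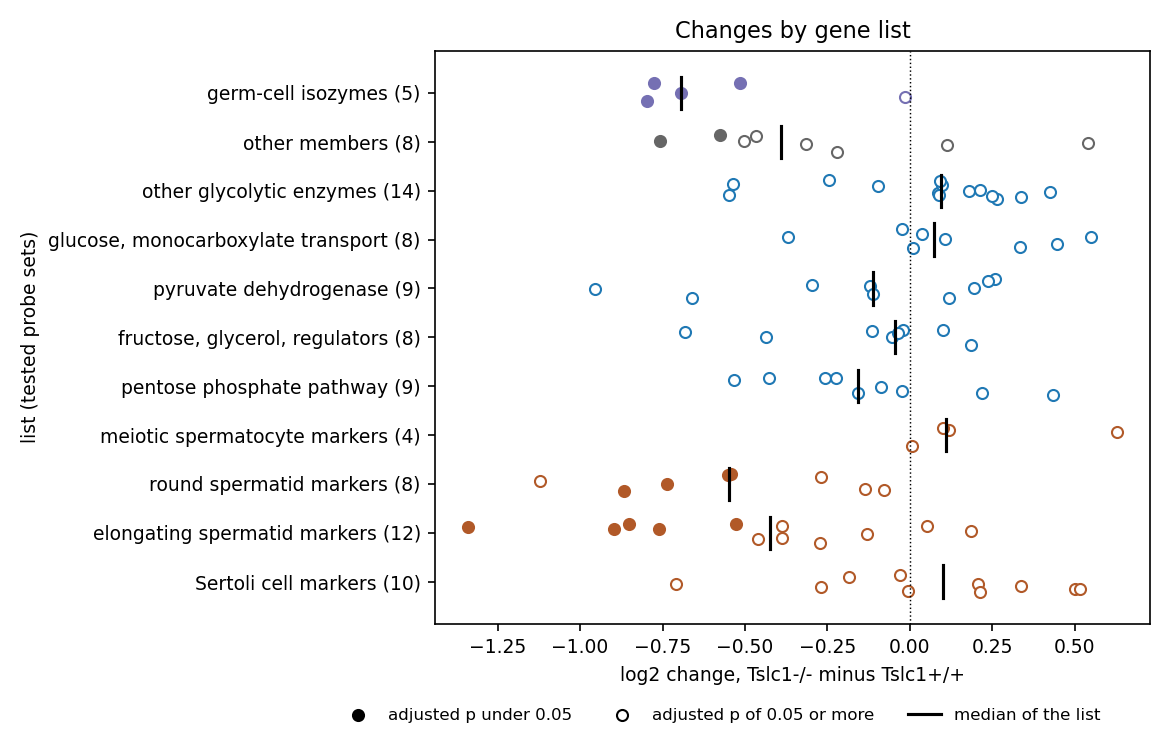
Log2 changes of tested probe sets by list, with the number of probe sets in brackets, filled where the adjusted p was under 0.05 and with a bar at the list's median. The germ-cell isozymes (median -0.69) and other members (-0.39) stand left of the 5 lists of other carbohydrate metabolism genes, whose medians run from -0.16 to 0.09, and beside the spermatid markers.

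Many markers of late germ cells were lower in Tslc1-/-, as were the called glycolytic enzymes. Of 12 tested probe sets of elongating spermatid markers 5 were called lower, those of Prm3, Tnp1, Odf1, Akap4 and Oaz3. As background, 0.84% of all tested probe sets were called lower, and 6.58% of those with a mean signal of at least 5000. Of the 12 changes 10 were negative and 2 positive, those of Actl7b (0.05, with overlap) and Prm2 (0.18, with overlap). The second Prm3 probe set overlapped between genotypes and was not called. The elongating spermatid list summed to 365296 and 344309 in Tslc1-/- against 493033 and 506822 in Tslc1+/+. Of 8 round spermatid probe sets 4 were called lower, those of Tssk2, Theg, Gsg1 and Tcp11, with sums of 124463 and 127305 in Tslc1-/- against 186995 and 194169 in Tslc1+/+. The meiotic spermatocyte list had 0 of 4 called and sums of 21073 and 22421 in Tslc1-/- against 19949 and 20460 in Tslc1+/+, and the Sertoli cell list 0 of 10 called and sums of 35003 and 32996 against 33524 and 33225. In whole testis, fewer cells of a type and less RNA per cell cannot be told apart. The part of spermatid number in the changes of the isozymes was not tested.

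Each list of somatic and other cells had at most 1 call. These lists are too short to set their shares against the 1.08% called among all tested probe sets. The Leydig cell list summed to 16177 and 17940 in Tslc1-/-, against 19283 and 19155 in Tslc1+/+ with 0 of 10 called. Of these 10 changes 6 were negative and 4 positive. The largest positive one was that of Hsd3b6, with 806 and 720 in Tslc1-/- against 345 and 328 in Tslc1+/+ (change 1.07, limma, adjusted p = 0.173). Its probe set has a cross-hybridisation suffix. The myoid list summed to 15215 and 14395 in Tslc1-/- against 17903 and 19953 in Tslc1+/+ with 1 of 7 called, Actg2, lower. Without Actg2, whose probe set has a cross-hybridisation suffix, the myoid list overlapped, at 6803 and 6292 in Tslc1-/- against 6165 and 7017 in Tslc1+/+. Endothelial markers summed to 8914 and 8559 in Tslc1-/-, against 7340 and 5546 in Tslc1+/+ with 1 of 5 called, Ly6e, higher. The called Ly6e probe set has a cross-hybridisation suffix. The other Ly6e probe set overlapped between genotypes (change -0.10, limma, adjusted p = 0.969). Without Ly6e the endothelial sums were lower, at 1234 and 1334 in Tslc1-/- against 2298 and 1909 in Tslc1+/+. The tested Vwf probe set was higher, at 516 and 523 in Tslc1-/- against 426 and 455 in Tslc1+/+ (change 0.22, limma, adjusted p = 0.865). Pecam1 read 244.8 and 117.4 in Tslc1-/-, against 911 and 687.5 in Tslc1+/+ (change -1.92, limma, adjusted p = 0.0694), and Kdr read 72.0 and 373.4 against 508.9 and 390.6 (change -1.13, limma, adjusted p = 0.61). Macrophage markers (0 of 6 called) summed to 5251 and 4426 in Tslc1-/-, against 4494 and 3520 in Tslc1+/+, and erythrocyte markers (0 of 3) to 2826 and 2733 against 2049 and 2471. Without Hba-a1 the erythrocyte sums were lower, at 963 and 1117 in Tslc1-/- against 1151 and 1335 in Tslc1+/+. The epididymis list (0 of 1 called) summed to 375 and 149 in Tslc1-/-, against 560 and 371 in Tslc1+/+. The ratio of 3' to 5' signal of beta-actin, a measure of RNA integrity, was 1.56 and 1.73 in Tslc1-/-, against 1.20 and 1.43 in Tslc1+/+, while that of Gapdh was 0.953 and 0.925 against 1.06 and 1.12. Their part in the changes was not tested.

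The genes with the nearest profiles were sought among 594 probe sets of other single genes with a mean signal of at least 5000, by the root mean square distance between 4 centred log2 values. Pgk2 was nearest to Akap1, an anchoring protein of protein kinase A on mitochondria (distance 0.03), Gsg1 (0.04) and Znrf4 (0.05). Akap1 read 13964 and 14445 in Tslc1-/- against 24261 and 26047 in Tslc1+/+, and Gsg1 read 45007 and 44413 against 71653 and 77606. The brighter Gapdhs probe set was nearest to Amz2 (0.05), the kinase gene Prkcd (0.05) and Capza3 (0.06).

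For Aldoart2 the nearest were Stard10 (0.02), Srpk2 (0.04) and Prkcd (0.04). Stard10, a lipid transfer protein gene, read 14009.9 and 12592 in Tslc1-/- against 20712 and 21226 in Tslc1+/+. Ldhc was nearest to Gsk3a (0.01), 1700037H04Rik (0.01) and Larp1 (0.02), all with changes near 0. Gsk3a, a glycogen synthase kinase gene, read 15527 and 13341 in Tslc1-/-, against 14013 and 14763 in Tslc1+/+. These distances rest on 4 arrays and describe them only.

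The calls of the members rest on few arrays and on the model of the spread. The dimmer Gapdhs probe set was called with each array left out (limma, adjusted p = 0.012 to 0.0389). Pkm lost its call without Tslc1+/+ replicate 2 (limma, adjusted p = 0.0529). The brighter Gapdhs probe set lost it without Tslc1+/+ replicate 1 (0.107) or Tslc1+/+ replicate 2 (0.0529), and with no filter on low signal (limma, adjusted p = 0.159). Of the 4 fits that each left out 1 array, Pgk2 was called in that without Tslc1-/- replicate 2 alone, with adjusted p from 0.0529 to 0.0774 without Tslc1+/+ replicate 1, Tslc1+/+ replicate 2 or Tslc1-/- replicate 1. Aldoart2 (limma, adjusted p = 0.0651 to 0.126) and Aldoa (0.072 to 0.161) were not called in any of these 4 fits. Without letting the spread follow the signal, 0 of the 13 were called, with 7 at an unadjusted p under 0.05, and 0 of all probe sets were called, with 638 at an unadjusted p under 0.05 (limma). The 6 called probe sets were lower in Tslc1-/- under each of the 12 or 13 alternatives in which they were tested. Since their genotypes did not overlap, only quantile normalization and equal array medians could have changed that sign.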

How the data were processed

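Per the labels' design text, the authors made biotin-labelled cRNA from 3 micrograms of RNA, primed at the poly(A) tail, and hybridised it to 1 array per sample. The table deposited by the authors holds 1 intensity per probe set and array, on a linear scale, computed with MAS5 and scaled for each array to a target of 1000, per the same text. Such scaling hides a change in total RNA per testis. Detection calls were not used here, and the genome build is not given in the sources used here.

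Groups follow the genotype in the sample titles. The table has 12488 probe sets, of which the 66 controls were not tested. The platform annotation names 1 gene for 10833 of the rest, several for 396 and none for 1193, and 10817 were named through Entrez identifiers in RefSeq genes of GRCm38.p6. No probe set with several genes names a member. The main fit was limma 3.58.1 in R 4.3.3 (lmFit, eBayes with an intensity trend) on log2(signal + 50) of 7975 probe sets with a mean signal of at least 200, two-sided, Benjamini-Hochberg adjusted over these and a threshold of 0.05. The script was tested on simulated data. Precision is limited by having 2 arrays per genotype.

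The members and lists were chosen with earlier results of these data known. The text names all members, Cadm1, from each carbohydrate list the called genes, the gene with the smallest p and the brightest gene, called markers, and for each germ-cell isozyme the 3 nearest profiles. Pgk1, Pgam1, Ldhb, Gapdh, Eno3, Myh4, Ckm, Acta1, Mb, Pecam1, Kdr, Vwf, Hba-a1, Hsd3b6, Prm1, Prm2, Actl7b and Sycp3 were added as counterparts or checks, after their values were seen. Alternatives were pseudocounts of 16 and 100, no filter or a filter of 500, no trend, quantile normalization, equal array medians, no probe sets with a suffix, a replicate block, and each array left out.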

Additional observations from a re-analysis of the deposited data

How the results depend on the processing

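Of 164 values of single member probe sets under the alternatives, 136 kept their direction and side of the threshold, 22 lost the call, 3 gained one and 3 changed sign, all 3 on the uncalled Ldhc (0.14 with quantile normalization, 0.02 without Tslc1+/+ replicate 2, 0.092 without Tslc1-/- replicate 2, and -0.12 to 0.092 over the arrays left out in turn). The number of called member probe sets, 6 of 13, was 0 without the intensity trend and 1 to 4 with 1 array left out, where the lone array of a genotype is assumed to vary like the other genotype. The number over all tested probe sets, 86, was 0 without the trend, 239 with the replicate block and 37 to 43 with 1 array left out. The germ-cell isozymes minus the other members, -0.29, became -0.55 over probe sets without a suffix, -0.19 with quantile normalization and -0.34 to -0.23 with 1 array left out. The other carbohydrate metabolism genes, 0 called, had 3 with the replicate block. Arrays of the same replicate number did not deviate together (r = -0.0012 across probe sets). Whether the numbers pair the arrays in another way cannot be told from this value, and the cause of the other shifts was not tested. With 2 arrays per genotype, changes of dim probe sets are measured poorly.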
